A study of Oryza sativa with 4 samples.

Results

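The genes described here are *YAB1*, *YAB4*, *YAB5* and *DL* of the YABBY family together with *LG1*, measured in young panicles of the rice mutant *phoenix* (*pho*) and of its wild type (WT). They were taken by name from a gene table of the rice assembly ASM3414082v1, and each of the 5 genes had a probe set of its own, out of 17905 genes with one. The *pho* mutant arose among the offspring of the *indica* variety Zhongxian 3037, which is the WT, and forms plantlets in place of flowers. By the study's account it carries a base change in *OsMADS15* together with epigenetic silencing of *OsMADS1*. Total RNA of whole panicles from plants in Beijing paddy fields was hybridized to 4 one-colour Affymetrix rice arrays, 2 for *pho* and 2 for WT. For each genotype, 1 array was of panicles of 9–12 cm and 1 of panicles of 5–8 cm, so that the arrays of a genotype also differ in panicle length. Plant age, the number of plants per sample and whether samples came from separate plants are not given in the sources used here.

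YABBY proteins are plant transcription factors with a zinc finger and a YABBY domain, and many of them act in lateral organs such as leaves and floral organs. In rice, *DL* (*DROOPING LEAF*) specifies carpels and is needed for the midrib of the leaf, *YAB5* (*TONGARI-BOUSHI1*) acts in lateral organs of the spikelet and in maintaining its meristem, and *YAB1* is known from stamen and carpel primordia. *LG1* encodes an SBP-domain transcription factor required for the ligule, auricle and laminar joint, the boundary between leaf blade and sheath, and it also affects how far panicle branches spread. The names of rice YABBY genes overlap between publications. The gene called *YAB4* here is also listed as *OsYABBY4* and *OsYAB7*, and the gene called *YAB5* here as *OsYABBY5* and *OsYAB3*. A different gene, *YAB6*, carries the name *OsYAB5*, and *YAB3*, which carries the name *OsYAB4*, has no probe set of its own in the annotation used. *DL* and *OsMADS1* are next to each other on the chromosome in the gene table, with no other gene between them.

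The values are MAS5 signals, a linear brightness per probe set that the authors scaled to the same overall intensity on each array. *OsMADS1* had signals of 109 and 4.6 in *pho* panicles of 9–12 and 5–8 cm, against 10671 and 10166 in WT panicles of the same lengths, which separates the arrays as their titles do. The WT sample of 9–12 cm was used as WT by its title and genotype, although a line of its description names *pho*. The *pho* array of 9–12 cm stood apart, with correlations of 0.796 to 0.827 to the other arrays over the 23929 probe sets tested, compared with 0.877 to 0.935 among the other 3 arrays. The median signal of all probe sets lay between 49.0 and 68.1 on the 4 arrays. For actin, whose control probe sets report on RNA integrity, the 3′ signal over the 5′ signal was 5.26 and 3.28 on the *pho* arrays of 9–12 and 5–8 cm and 4.95 and 10.6 on the WT arrays of these lengths.

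Of the 5 genes, *YAB1* was the one with the largest factor between *pho* and WT. Its signal was 3768 in *pho* panicles of 9–12 cm and 3276 in those of 5–8 cm, against 17445 and 14549.6 in WT panicles of the same lengths. Both *pho* arrays were far below both WT arrays, and within each genotype the signals were close to each other. The WT signal was 4.63 times the *pho* signal at 9–12 cm and 4.44 times at 5–8 cm. The lowest WT signal was 3.86 times the highest *pho* signal, whereas the arrays of a genotype differed by 1.15 times in *pho* and 1.20 times in WT. The mean signal was 3522 ± 348 in *pho* and 15997 ± 2047 in WT (SD, n = 2 each). The probe set behind these values is of a type whose probes can match several transcripts, so a share from a similar YABBY gene cannot be told apart. A second probe set of *YAB1* lay below the median signal of all probe sets on each of the 4 arrays, with 12.4 and 9.5 in *pho* panicles of 9–12 and 5–8 cm, against 52.5 and 37.6 in WT panicles. These faint signals had the same order as those of the brighter probe set.

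*DL* and *YAB4* also had lower signals in *pho* than in WT at both lengths, by smaller factors. The signal of *DL* was 215 in *pho* panicles of 9–12 cm and 405 in those of 5–8 cm, against 673 and 857.5 in WT panicles of these lengths. The groups did not overlap, although the gap between them, 1.66 times, was smaller than the 1.88 times by which the *pho* arrays differed. The mean signal of *DL* was 310.2 ± 134 in *pho* and 765 ± 131 in WT (SD, n = 2 each). On both *pho* arrays the *DL* signal lay above the median of all probe sets. The signal of *YAB4*, a gene for which expression in leaf vascular tissue is known, was 1719.8 in *pho* panicles of 9–12 cm and 1764 in those of 5–8 cm, against 2652 and 4876 in WT panicles. The *pho* arrays were nearly equal, and the WT arrays differed by 1.84 times, more than the gap of 1.50 times between the genotypes. The mean signal of *YAB4* was 1742 ± 31.3 in *pho* and 3764 ± 1573 in WT (SD, n = 2 each).

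*YAB5* and *LG1* did not separate the genotypes, and their signals were ordered by panicle length instead. The signal of *YAB5* was 1482 in *pho* panicles of 9–12 cm and 4325 in those of 5–8 cm, against 2009 and 3748 in WT panicles of these lengths. Both arrays of longer panicles were below both arrays of shorter panicles, and the *pho* arrays held the highest and the lowest of the 4 signals. Its mean signals were 2903 ± 2011 in *pho* and 2878 ± 1229 in WT (SD, n = 2 each). The signal of *LG1* was 499.5 in *pho* panicles of 9–12 cm and 182 in those of 5–8 cm, against 326 and 184 in WT panicles. The signals in the shorter panicles were almost the same in both genotypes, at a factor of 1.01, and both arrays of longer panicles were higher. The mean signal of *LG1* was 341 ± 224 in *pho* and 255 ± 100.3 in WT (SD, n = 2 each).

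**Figure D1:**
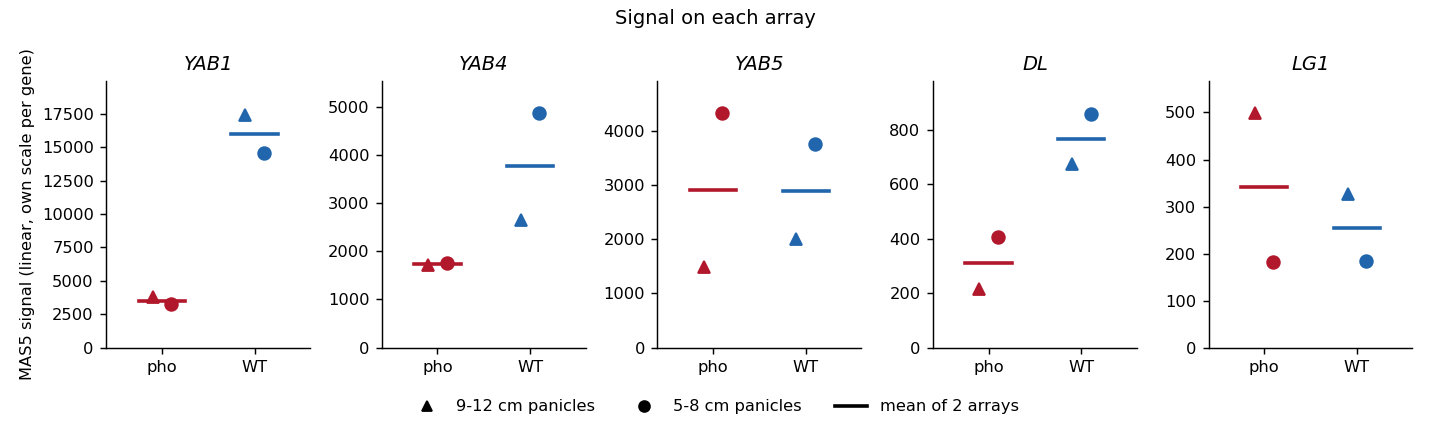
MAS5 signal (linear, a scale of its own for each gene) of the 5 genes in *pho* and WT, with triangles for panicles of 9–12 cm, circles for panicles of 5–8 cm and bars for the mean of 2 arrays. *YAB1*, *YAB4* and *DL* have both *pho* arrays below both WT arrays, while *YAB5* and *LG1* overlap between genotypes.

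To ask whether the genotypes differed beyond the spread between arrays, log2(signal + 16) was compared with limma over all 23929 probe sets whose signal averaged at least 100, a filter that all 5 genes passed. None of the 5 genes passed at an adjusted p under 0.05 in limma, and neither did any other probe set in this fit (0% higher and 0% lower in *pho*). A fit with the length as a block called 8 probe sets higher and 32 lower in *pho*, and none of the 5 genes was among them. At an unadjusted p under 0.05, *YAB1*, *DL* and *YAB4* were lower, 3 of 5 genes, where 3.38% of all tested probe sets were lower and 3.45% higher. The same 3 genes were those with both *pho* arrays below both WT arrays, a pattern shown by 21.1% of all tested probe sets, while 17.9% showed the opposite pattern and none of the 5 genes did. A lower *pho* signal at each length follows from both *pho* arrays being below both WT arrays. It adds no further result for these 3 genes. Of all tested probe sets, 32.5% were lower in *pho* at each length. The 5 genes were chosen with earlier results of these data known, so setting them beside these shares is not a test.

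*YAB1* had a log2 fold change of *pho* over WT of -2.18 (SE 0.225, 95% interval -2.76 to -1.60, limma adjusted p = 0.177) and ranked 28 of all tested probe sets by p. With panicle length as a block its adjusted p from limma was 0.0736, which did not pass either. For *DL* the log2 fold change was -1.31 (SE 0.416, 95% interval -2.39 to -0.24, adjusted p = 0.662 from limma), and without the *pho* array of 9–12 cm it was -0.88. *YAB4* had a log2 fold change of -1.04 (SE 0.373, 95% interval -2.00 to -0.08, adjusted p = 0.705 from limma), which was -0.60 without the WT array of 5–8 cm. These estimates lie on the log2(signal + 16) scale. For *YAB5* the log2 fold change was -0.11 and its 95% interval of -1.70 to 1.47 left room for a difference in either direction (adjusted p = 0.973 from limma). For *LG1* the log2 fold change was 0.29, with an interval of -1.26 to 1.83 that is nearly as wide (adjusted p = 0.924 from limma). Except with length as a block, these p values measure the spread between 2 samples of a genotype, which includes the difference in panicle length. With the block, the p value measures the spread left after genotype and length are both fitted.

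Among the 3 genes with lower signals, *YAB1* had the most similar ratios in the longer and the shorter panicles. At 9–12 cm its log2 ratio was -2.21 and at 5–8 cm -2.15. That of *DL* was -1.58 at 9–12 cm and -1.05 at 5–8 cm. *YAB4* had -0.62 at 9–12 cm and -1.46 at 5–8 cm, so that *DL* lay farther from WT in the longer panicles and *YAB4* in the shorter ones. With 1 array per genotype and length, whether these ratios differ between the lengths could not be tested. *YAB5* and *LG1* had *pho* over WT in opposite directions at the 2 lengths, as did 39% of all tested probe sets.

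**Figure D2:**
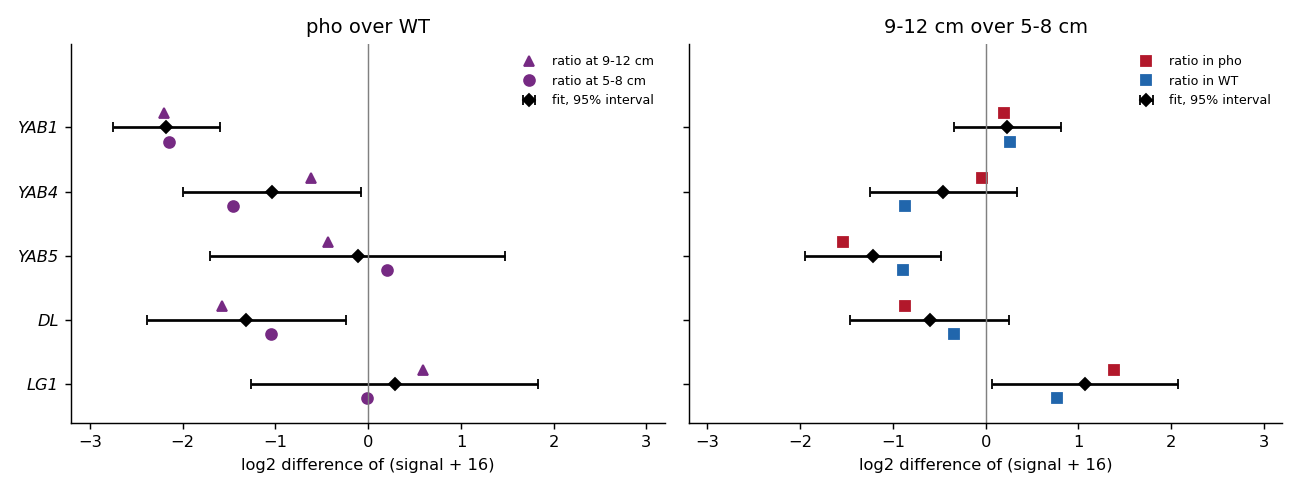
Log2 differences of (signal + 16) for the 5 genes, *pho* over WT on the left and 9–12 cm over 5–8 cm on the right. Diamonds and bars are limma's estimate and 95% interval, and the other symbols are ratios of single arrays. On the left the interval of *YAB1* (-2.76 to -1.60) is the farthest from 0, and on the right the intervals of *YAB5* and *LG1* leave out 0 without an adjusted p under 0.05.

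Panicles of 9–12 cm were compared with panicles of 5–8 cm in a fit with genotype as a term. None of the 5 genes passed in limma, and 0% of all tested probe sets were higher and 0% lower in the longer panicles at an adjusted p under 0.05. At an unadjusted p under 0.05, *YAB5* was lower and *LG1* higher, where 3.56% of tested probe sets were lower and 6.99% higher. *YAB5* had a log2 fold change of the longer over the shorter panicles of -1.21 (SE 0.286, 95% interval -1.95 to -0.48, adjusted p = 0.36 from limma). Its log2 ratio was -1.54 in *pho* and -0.89 in WT. *LG1* had a log2 fold change of 1.08 (SE 0.392, 95% interval 0.07 to 2.08, adjusted p = 0.461 from limma), with a log2 ratio of 1.38 in *pho* and 0.77 in WT. *DL* had a log2 fold change of -0.60 and *YAB4* of -0.46, both with intervals that include 0 (adjusted p = 0.545 and 0.599 from limma). The log2 ratio of *YAB4* was -0.04 in *pho* and -0.87 in WT. *YAB1* had a log2 fold change of 0.23 with an interval of -0.35 to 0.81 (adjusted p = 0.703 from limma). Of the 5 genes, 3 were lower in the longer panicles in both genotypes and 2 were higher, as were 35% and 27.5% of all tested probe sets.

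The 5 genes thus had different profiles over the 4 arrays. Likeness was measured as the root mean square difference between the centred log2(signal + 16) values of a pair of genes over the 4 arrays, a description that has no test. Among the 5 genes, *DL* and *YAB4* were nearest to each other, at 0.37 log2 units, and *YAB1* and *LG1* were farthest apart, at 1.31. Of 2037 other named genes that were tested, those nearest to *YAB1* were *OsCASPL1D1* (0.06), the sucrose transporter gene *SUT5* (0.10) and the glutamine synthetase gene *OsGLN1;3* (0.14). The median over all named genes was 1.13 for *YAB1*. *SUT5* had signals of 64.1 and 49.4 in *pho* panicles of 9–12 and 5–8 cm, against 382 and 258.5 in WT panicles. On the *pho* arrays *SUT5* and *OsCASPL1D1* lay below the median signal of all probe sets and passed the filter through WT, so their distances to *YAB1* rest on faint *pho* signals. Nearest to *DL* were *TDL1B* (0.10), *DI1* (0.13) and the formin gene *FH2* (0.13), with a median of 0.77 over all named genes. *TDL1B*, which resembles an *Arabidopsis* gene for a small secreted protein of anther development, had 1947 and 3145 in *pho* panicles of 9–12 and 5–8 cm, against 4934 and 6328 in WT panicles. Nearest to *YAB4* were *CLPC3* (0.13), *OsPP2C21* (0.13) and *SRP14* (0.16), and the median was 0.68.

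Nearest to *YAB5* were *LPR2* (0.03), the zinc finger homeodomain gene *ZHD10* (0.05) and *MCM2* (0.06), which encodes a subunit of the DNA replication helicase, with a median of 0.70 over all named genes. *MCM2* had signals of 1447 and 4499 in *pho* panicles of 9–12 and 5–8 cm, against 2194.5 and 3734 in WT panicles, the order of arrays seen in *YAB5*. Nearest to *LG1* were the transporter gene *ABCG37* (0.08), *MUB3* (0.08) and the Aux/IAA gene *IAA23* (0.09), and the median was 0.70. *IAA23* had 518 and 190.2 in *pho* panicles of 9–12 and 5–8 cm, against 344 and 165 in WT panicles.

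**Figure D3:**
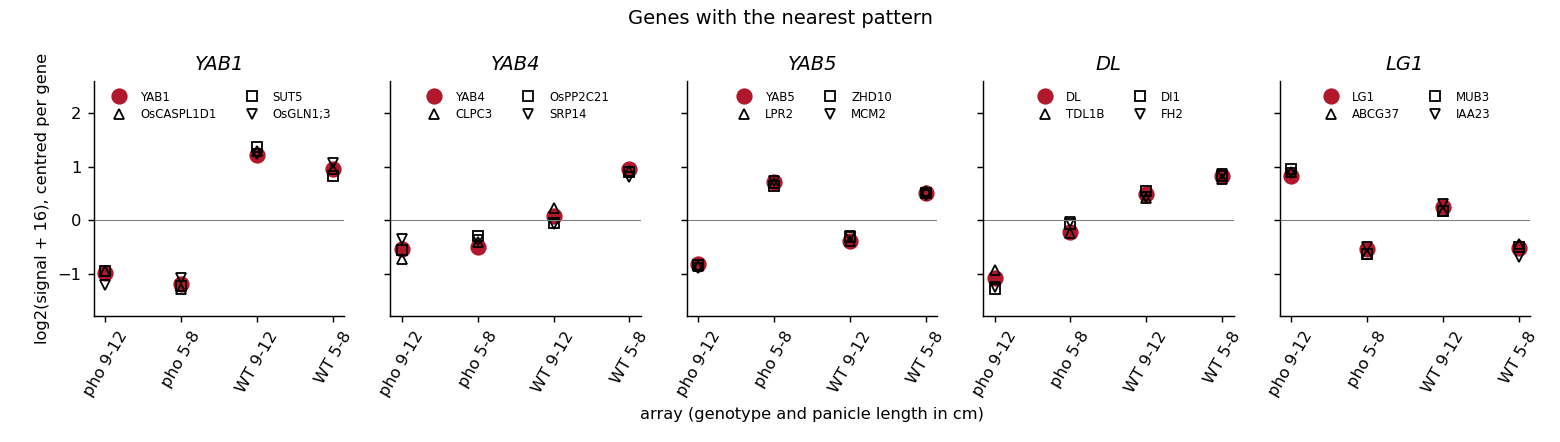
Log2(signal + 16), centred on each gene's mean, on the 4 arrays, with *pho* left of WT, for each of the 5 genes (filled circles) and the 3 named genes nearest to it (open symbols). The profile of *YAB1* follows genotype, and those of *YAB5* and *LG1* follow panicle length.

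Of the other YABBY genes, *YAB2*, *YAB6* and *YAB7* were measured. *YAB2* had signals of 3841 and 2118 in *pho* panicles of 9–12 and 5–8 cm, against 4921 and 4437 in WT panicles, so that both *pho* arrays were lower (log2 fold change -0.71 with an SE of 0.361, limma adjusted p = 0.762). *YAB6* overlapped between genotypes, with 1151 and 365 in *pho* panicles of 9–12 and 5–8 cm, against 1124.5 and 789.9 in WT panicles. *YAB7* was too low for the test, with 54.3 and 29.1 in *pho* panicles and 52.7 and 8.6 in WT panicles of these lengths.

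Genes of related pathways were counted in lists, and in none of these lists did a gene pass at an adjusted p under 0.05 in limma. Adaxial-abaxial polarity is the setting of the upper and lower side of organs. Of 16 tested genes of this list, 3 were lower and 0 higher at an unadjusted p under 0.05, beside 3.38% and 3.45% of all tested probe sets. Both *pho* arrays were below both WT arrays in 7 genes and above them in 1, beside 21.1% and 17.9% of all tested probe sets. Their median log2 fold change was -0.29, compared with -0.03 for all tested probe sets. Split by length, the list median of *pho* over WT stood at -0.48 for the longer panicles, beside -0.10 for all tested probe sets. For the shorter panicles it came to 0.04, beside 0.02. The lower list median thus rests on the length whose *pho* array stood apart. The largest changes were in *SGS3* (log2 fold change -1.98) and *SHL2* (-1.33), whose counterparts in *Arabidopsis* act in making small RNAs that restrict abaxial regulators, and in *AS2* (-1.75), named after an *Arabidopsis* gene of the adaxial side. *SGS3* had signals of 1023 and 1755 in *pho* panicles of 9–12 and 5–8 cm, against 5192 and 5515 in WT panicles. Of the 4 tested HD-ZIP III genes, whose family acts on the adaxial side, *HOX10*, *HOX32* and *HOX33* overlapped between genotypes, and *HOX9* did not, with 2984 and 3498 in *pho* panicles of 9–12 and 5–8 cm, against 3981 and 3851 in WT panicles.

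Of 9 tested genes of the ligule, organ boundaries and leaf angle, among which *LG1* acts, 0 were lower or higher at an unadjusted p under 0.05 and the median log2 fold change was -0.04. *LG2* was too low for the test, with 77.1 and 104 in *pho* panicles of 9–12 and 5–8 cm, against 119 and 85.4 in WT panicles. *D11* (log2 fold change -0.91), a gene of brassinosteroid synthesis, *TAC1* (0.69), a gene of tiller angle, and *BU1* (0.23), a regulator of leaf angle, differed most. *LG1* is also listed as *SPL8*, and of 10 other *SPL* genes 5 had both *pho* arrays above and 3 both below the WT arrays, compared with 17.9% and 21.1% of all tested probe sets (median log2 fold change 0.15). *SPL16*, a regulator of grain width, had the largest difference (log2 fold change -3.84, adjusted p = 0.298 from limma), followed by *SPL12* (-1.02) and *SPL2* (1.01).

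The floral list, genes known to act in the flower where *DL* specifies the carpel, was mostly lower in *pho*, with 13 of 17 tested genes lower and 1 higher at an unadjusted p under 0.05 and 15 with both *pho* arrays below both WT arrays (3.38%, 3.45% and 21.1% of all tested probe sets). Their median log2 fold change was -2.72, and that of *DL* was -1.31. The 3 largest changes were those of *OsMADS1* (-7.68), *OsMADS8* (-5.19) and *OsMADS7* (-5.10). Of these lists this is the one in which the study itself had already tabulated many genes from these samples. Of 8 tested WOX and KNOX homeobox genes, 1 had both *pho* arrays below both WT arrays, a share under the 21.1% of all tested probe sets, and the median log2 fold change was -0.11. Here *HOS66* (log2 fold change 1.33), *OSH43* (-0.83) and *HOS59* (0.51) differed most. The values of *HOS66* and *HOS59* rest on the *pho* array of 9–12 cm, the array that stood apart. Their log2 ratios of *pho* over WT were 2.71 and 1.18 at 9–12 cm but -0.06 and -0.17 at 5–8 cm, and both genes overlapped between genotypes.

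**Figure D4:**
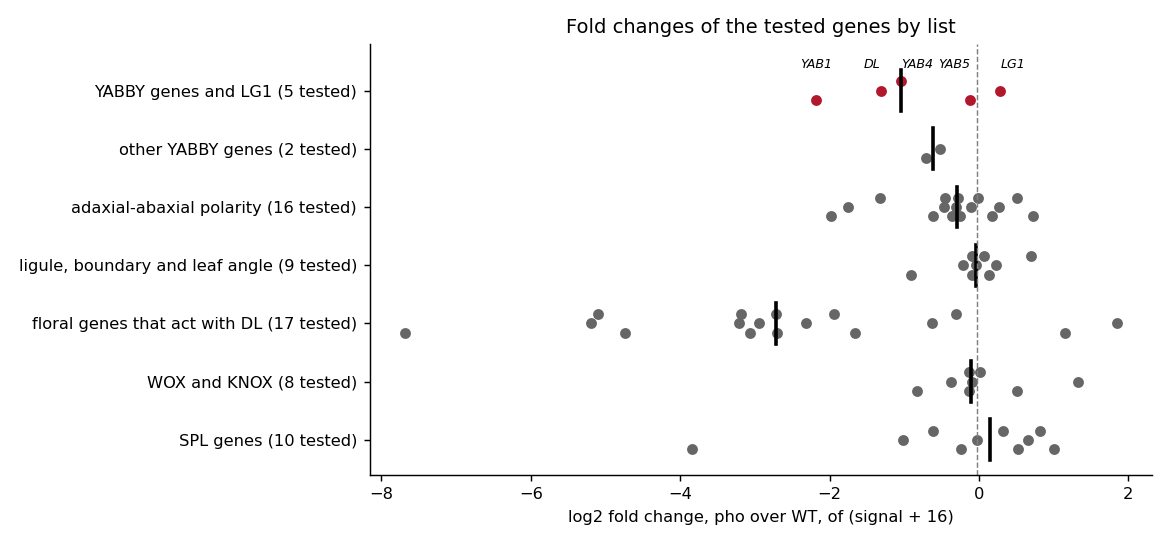
Log2 fold change of *pho* over WT of (signal + 16) for each tested gene, with 1 line of points per list, black bars for the list medians and a dashed line for the median of all tested probe sets (-0.03). *YAB1*, *DL* and *YAB4* lie farthest left of 0 among the 5 genes. The floral list has a median of -2.72 and runs from -7.68 (*OsMADS1*) to 1.85 (*RFL*), a range that holds all 5 genes.

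The arrays were made from whole panicles, in which fewer cells of a type and less RNA per cell cannot be told apart. Genes taken as markers of carpel and ovule (*OsMADS3*, *OsMADS58* and *OsMADS13*) were lower in *pho* at both lengths in 3 of 3 cases, as were 32.5% of all tested probe sets. Whether these genes mark the carpel and ovule alone was not tested. *OsMADS13* had 16.8 and 14 in *pho* panicles of 9–12 and 5–8 cm, and it and *OsMADS58* passed the filter through WT. The summed signals of the 3 genes were 122.5 to 185 in *pho* and 2799 to 3161 in WT. Markers of the anther wall and tapetum were lower at both lengths in 7 of 7 cases, beside the same 32.5%. *TDR*, *EAT1* and *TIP2* passed the filter through WT, which favours lower *pho* signals, so setting the 7 beside this share is not a test. *C6* and *PTC1* overlapped between genotypes. At 5–8 cm *C6* had 28 in *pho* and 47 in WT, each below the median signal of its array. The summed signals of the 7 markers were 864.5 to 1463 in *pho* and 9150.1 to 44112 in WT. Markers of leaf chloroplasts were higher at both lengths in 6 of 7 cases, as were 28.5% of all tested probe sets. Their summed signals at 9–12 cm were 61290.2 in *pho* and 17312 in WT, and at 5–8 cm 33604 in *pho* and 24041 in WT. The median log2 ratio of these markers was 2.95 at 9–12 cm and 0.65 at 5–8 cm. The larger difference thus rests on the length whose *pho* array stood apart. The lowest signal of any probe set was 0.1 to 0.2 on these arrays, so a signal above 0 does not show that a marker was expressed. The carpel and anther markers were lower in *pho* at both lengths, as *YAB1*, *DL* and *YAB4* were, while the leaf chloroplast markers were mostly higher. The part of these cell types in the differences of the 3 genes was not tested. Of the panicle and floral meristem markers, 5 of 6 measured genes were tested (*RFL*, *OsMADS14*, *OsMADS15*, *OsMADS18* and *OSH1*). Of these, *RFL* and the *OsMADS* genes, 4 in all, were higher in *pho* at both lengths and 0 lower, where 28.5% and 32.5% of all tested probe sets were. *OSH1* overlapped between genotypes, with a log2 fold change of -0.37 and log2 ratios of -0.79 at 9–12 cm and 0.04 at 5–8 cm. The median log2 fold change of the 5 tested genes was 0.46, and 2 were higher at an unadjusted p under 0.05 (3.45% of all tested probe sets). Over all 6 genes the summed signals were 30542 to 37433.5 in *pho* and 26995 to 30331 in WT. The largest part came from *OsMADS15*, the gene with the base change in *pho*. It had 16022 and 15892 in *pho* panicles of 9–12 and 5–8 cm, against 15321 and 14444 in WT panicles. By earlier work that the study cites, its RNA starts in the young floral primordium. Later the RNA gathers mainly in glumes, lemma, palea and lodicules, so *OsMADS15* is not a marker of the meristem alone. *FZP* was too low for the test, with signals of 2.7 to 5.1 in *pho* and 16 to 30.7 in WT.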

How the data were processed

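Total RNA of young panicles was measured on 4 one-colour Affymetrix GeneChip Rice Genome Arrays, 2 for *pho* and 2 for WT. Per the methods, the authors summarized probe sets as MAS5 signals in GCOS (versions not given in the sources used here), and the deposited values are linear signal intensity with each array scaled to an overall intensity of 500. Detection calls, real-time PCR and bisulfite sequencing were not analysed here. The number of arrays limits the precision.

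Of 57381 probe sets, 123 controls were left out. By the platform annotation 22436 probe sets belong to 1 gene, 95 belong to several, and 34727 are unnamed here. Names came from the gene table of ASM3414082v1, and the probe set with the highest mean signal represented a gene. A bare name was preferred to the same name with Os, and names shared with unrelated genes were settled by hand or dropped, which left 102 of 183 list entries with a probe set, some in 2 lists. Those averaging a signal of 100 or more were tested on log2(signal + 16) in limma 3.58.1 (R 4.3.3) by lmFit and eBayes with an intensity trend, two-sided, adjusted by Benjamini-Hochberg over all 23929, at a threshold of 0.05. Genotype was the only term, and the length fit held both length and genotype. The methods name no test for the arrays. Fits were tested on simulated data. Replicate numbers stand for panicle length and so pair the arrays by the labels (correlation of the deviations of replicate 1 across probe sets 0.311). Tables and figures used pandas 2.3.3 and numpy 2.4.6, with matplotlib 3.10.9, under Python 3.11.15.

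The 5 genes and the lists were chosen with earlier results of these data known. Named genes are the 5 members, all measured YABBY genes, the 3 tested genes of each other list with the largest log2 fold change, and the 3 nearest genes of each member. *LG2*, *HOX9*, *HOX10*, *HOX32* and *HOX33* were added after their values were seen. Alternatives were quantile normalization, centring on the median, a pseudocount set to 1 or 64, a minimum signal of 200 or none, no trend, the length as a block, leaving out each array in turn or probe sets that match several transcripts, the mean over a gene's probe sets, and the length fit without genotype.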

Additional observations from a re-analysis of the deposited data

Results flagged for a closer look

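*YAB5* and *LG1* are listed because their *pho* and WT arrays differed in opposite directions at the 2 panicle lengths. The log2 ratio of *pho* over WT of *YAB5* was -0.44 at 9–12 cm and 0.21 at 5–8 cm. For *LG1* it was 0.59 at 9–12 cm and -0.016 at 5–8 cm, so that the shorter panicles hardly differed. The difference between the lengths was not tested, because there was 1 array per genotype and length, and 39% of all tested probe sets also had opposite directions.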

How the results depend on the processing

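None of the 5 genes passed at an adjusted p under 0.05 under any of the alternatives, in either comparison. For *pho* over WT, *YAB1*, *YAB4* and *DL* kept their direction under all of them, with log2 fold changes of -2.31 to -1.67, -1.48 to -0.60 and -1.75 to -0.88. For these genes both *pho* arrays lay below both WT arrays. Leaving out an array or changing the pseudocount, minimum signal, trend or block therefore could not reverse the direction. With no array left out, their adjusted p from limma was at least 0.0736, 0.389 and 0.344. *YAB1* could not be fitted without probe sets that match several transcripts, because its other probe set is under the filter. Leaving out 1 array at a time, *YAB5* ranged from -0.88 to 0.65 and *LG1* from -0.40 to 0.98, and both changed sign without the *pho* array of 9–12 cm (0.65 and -0.40) and without the WT array of 5–8 cm (0.33 and -0.10). The lone array of a genotype is then assumed to vary like the other genotype. Over all probe sets, 0 were called in the main setting in either direction. With panicle length as a replicate block, 8 were higher and 32 lower in *pho*, and none of the 5 genes was among them. After centring arrays on their medians, 11 were higher and 40 lower in *pho*, and 13 were higher and 1 lower in the longer panicles. Centring moved the median log2 fold change of the length comparison to -0.36, against -0.08 in the main setting, and *YAB1* to -0.056 there. The length comparison could not be fitted with an array left out, because no residual degrees of freedom remained.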
